A study of Mus musculus with 20 samples.

Results

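The miRNAs described here are the mature forms of 4 mouse families, miR-297, miR-466, miR-467 and miR-669, which are usually named together as the Sfmbt2 cluster. Members were taken by name: every feature called mmu-miR- with one of these 4 numbers, whatever its letter, copy number or arm, which gave 74 of the 1481 features (29 of miR-466, 26 of miR-669, 13 of miR-467 and 6 of miR-297). They were measured by small RNA sequencing in primary neurons from embryonic day 15 mouse cortices that had been cultured for 7 days. Neurons were either wild type (WT) or knockout (KO) for ciRS-7, a circular RNA of the Cdr1as locus, and both genotypes carry the strain label C57BL/6N-Cdr1asem1Nikr. Each genotype was held for 12 h either in normoxia (5% CO2, 37 °C, 25 mM glucose and 0.2 mM pyruvate added) or in oxygen-glucose deprivation, OGD, an ischaemia model (1% O2, 5% CO2, 37 °C, neither glucose nor pyruvate added). The 4 groups held 5 biological replicates each, 20 libraries in all. Whether replicates were separate litters is not given in the sources used here.

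A miRNA is cut from a hairpin precursor whose 5p and 3p arms can each give a mature strand. The strand is loaded into an Argonaute protein and finds target RNAs mainly through its seed, bases 2 to 8. Sfmbt2 encodes a Polycomb-group protein, and one of its introns holds a large rodent array of near-identical hairpins. Host gene and array are known from the placenta, where they are expressed from the paternal allele, and the array is also known from embryonic stem cells. Many hairpins of these families hold alternating repeats, so reads of one member often match another.

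On the GRCm38 build, RefSeq lists 82 precursor genes of the 4 families. Of these, 72 lie in Sfmbt2 (chromosome 2, 10370510 to 10595253, plus strand), all in an intron and on the strand of the host gene, within 51617 bases (10466663 to 10518279). miR-669a has 12 such precursors, miR-467a 10 and miR-466b 8. The other 10 precursors lie on other chromosomes. By the precursors listed under their names, 60 members had precursors only in Sfmbt2, 5 (miR-466f and miR-297a forms) in Sfmbt2 and elsewhere, and 9 only elsewhere. These classes go by name and not by the origin of reads. miR-297b-3p and miR-297c-3p are among the 60, but had the same reads as miR-297a-3p. The name "Sfmbt2 cluster" does not hold for the 9 from elsewhere, and they include the most abundant member over the 20 libraries, miR-466i-5p. Mir466i lies on chromosome 13 (17747473 to 17747593, plus strand), in an intron of Cdk13 on the opposite strand. No feature outside the 4 families had a precursor in Sfmbt2.

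RefSeq (GRCm38.p6) gave a mature sequence for 1248 of the 1481 features and for 8 members, all 8 among the 9 whose precursors lie only outside Sfmbt2. They are shown because they carry the pattern of repeats described further on. Capitals mark the seed.
miR-466i-3p: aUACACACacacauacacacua
miR-466q: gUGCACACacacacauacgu
miR-467f: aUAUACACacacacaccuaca
miR-467g: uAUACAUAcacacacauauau
miR-466k: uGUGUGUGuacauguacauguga
miR-669n: aUUUGUGUguggaugugugu
miR-466j: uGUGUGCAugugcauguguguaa
miR-467h: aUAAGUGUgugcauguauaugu
No 2 of these members shared a seed. The seed of miR-467h was also that of miR-668-5p, and the other 7 seeds were found in no other feature with a sequence. Most members had no sequence and could not be searched, so whether seeds are shared within the families is not known. miR-466i-3p maps to chr13:17747552-17747573 (plus strand), miR-466q to chr3:28419988-28420007 (plus strand, in an intron of Tnik on its strand), miR-467f to chr11:69635419-69635439 (minus strand, in an intron of Fxr2 on the opposite strand) and miR-467g to chr5:34732872-34732892 (minus strand, in an intron of Grk4 on the opposite strand).

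Levels are given as CPM, reads scaled to a library of 1000000, and mature miRNAs are of nearly one length (20 to 23 bases in those shown), so no length correction was made. Libraries held 1160582 to 12477032 miRNA reads, and those of OGD (1160582 to 4374002) were mostly shallower than those of normoxia (2492065 to 12477032), with ranges that overlap in WT. A floor of 3 reads was worth 0.249 to 2.55 CPM, depending on the library, and covers counting error only. The 7 neuronal marker miRNAs summed to 315162 to 410180 CPM, mostly miR-9-5p, and did not move alike. After OGD miR-128-3p averaged less (60839 and 40381 CPM in WT, 63757 and 43234 in KO). miR-124-3p averaged more (3392 and 5628 CPM in WT, 3660 and 5399 in KO). The 3 vessel and mural markers, mostly miR-126a-3p, summed to 288 to 431 CPM over all libraries. The 2 red cell markers summed to 0.557 to 5.10 CPM. The part of these cells in the results was not tested. The microglia and blood markers miR-142a-3p and miR-223-3p had at most 12 and 2 reads in any library; all 5 markers of that list, mostly miR-146a-5p, summed to 128 to 138 CPM in normoxic WT, 153 to 217 after OGD, 116 to 144 in normoxic KO and 165 to 244 after OGD, and their part in the results was not tested. Of 5 trophoblast markers 1 was among the features, miR-295-3p, with at most 4 reads. miR-210-3p, which hypoxia induces in many cell types, averaged 18.3 CPM in normoxic WT and 108 after OGD, and 26.0 and 110.2 in KO.

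Most members were rare. Over the 20 libraries 12 members averaged 10 CPM or more, 39 averaged 1 to 10 and 23 less than 1, and 25 of 74 had more than 3 reads in every library. Reads were also shared: 16 members fell into 7 sets with the same number of reads in each of the 20 libraries, so that 65 members were distinct. The sets were miR-669a-5p with miR-669p-5p, miR-669a-3p with miR-669o-3p, miR-466a-3p with miR-466e-3p, miR-466b-3p with miR-466c-3p and miR-466p-3p, miR-466b-5p with miR-466o-5p, miR-466m-5p with miR-669m-5p, and miR-297a-3p with miR-297b-3p and miR-297c-3p. Members of a set cannot be told apart here. miR-466f-3p and miR-466i-3p were not such a set, but their reads stood at a ratio of 0.778 to 1.42 (miR-466i-3p over miR-466f-3p, median 0.981), so a rule that splits reads between them could move both.

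Summed with each set counted once, the members made up 293 ± 69.6 CPM (SD, n = 5) in normoxic WT neurons and 731 ± 138 after OGD. In KO neurons they made up 281 ± 31.5 CPM in normoxia and 620.1 ± 195 after OGD. By library the sum was 233, 283, 283, 256 and 412 CPM in normoxic WT (replicates 1 to 5 in order, here and in all lists that follow), and 569.6, 662, 911, 680.1 and 832 after OGD. In KO it was 251, 312, 250.5, 315 and 275 CPM in normoxia, and 495, 576, 553, 513 and 963 after OGD. In both genotypes each OGD library lay above each normoxic one. In bulk RNA a change in the number of cells of a type and a change in RNA per cell cannot be told apart.

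Some libraries stood apart. Replicate 5 of normoxic WT and replicate 5 of KO after OGD had the highest sums of their groups, and each was also the shallowest of its group (2492065 and 1811589 reads). Replicate 3 of WT after OGD, again the shallowest of its group (1160582 reads), had the highest sum there. In normoxic KO the shallowest library (replicate 3, 5884616 reads) had the lowest sum. Without the shallowest library of each group the mean sums were 263 and 686 CPM in WT and 288 and 534 CPM in KO. The part of depth in these sums was not tested; the fits on reads thinned to one depth are given beside the results.

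**Figure D1:**
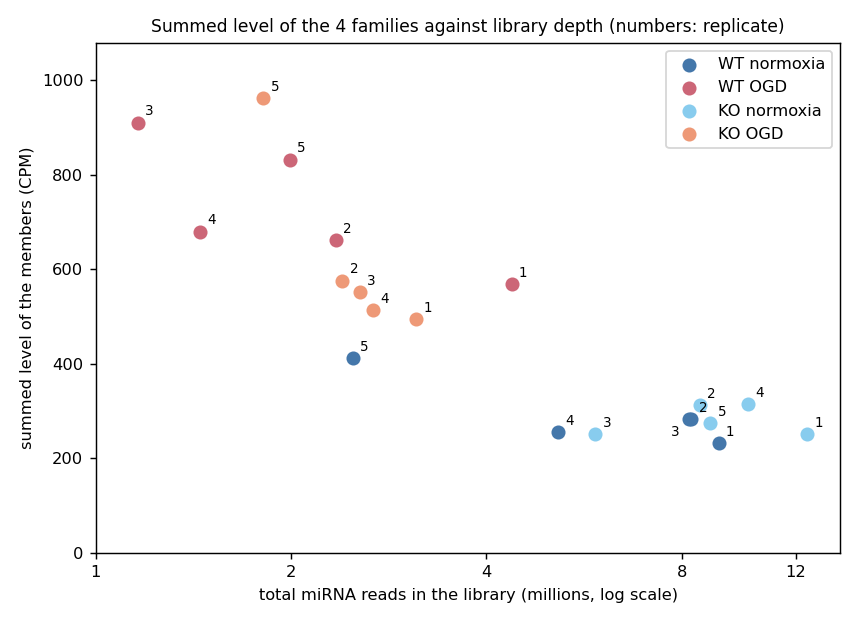
Summed level of the members (CPM, sets of identical reads counted once) against the miRNA reads in each library (log axis), one point per library with its replicate number. All OGD libraries lie at 495 CPM or above and all normoxic libraries at 412 or below; the shallowest library of 3 of the 4 groups has the highest sum of its group.

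OGD was compared with normoxia within each genotype by limma on log2(CPM + 0.5), with Benjamini-Hochberg adjustment over all features and a threshold of 0.05. In WT neurons 31 of 74 members rose and 0 fell. Over all 1478 features tested, 18.7% rose and 4.4% fell. The median log2 fold change was 0.75 over the members and 0.32 over all features. Counting each set of identical reads once, 25 of 65 members rose. The groups did not overlap in 20 of 74 members, all higher, against 13.5% of all features higher and 2.57% lower.

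In KO neurons 25 of 74 members rose after OGD and 0 fell, against 18.8% and 5.75% of 1479 features. The median log2 fold change was 0.55 over the members and 0.24 over all features, and 23 of 65 distinct members rose. The groups did not overlap in 22 of 74, all higher, against 15.3% of all features higher and 3.79% lower. 18 members rose in both genotypes, 13 passed the threshold in WT alone and 7 in KO alone, against 12.8%, 5.89% and 6.03% of the 1476 features tested in both; the difference between genotypes is tested further on.

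The scale mattered for the weaker changes. Library medians, taken over the features whose log2(CPM + 0.5) averaged at least 3, stood 0.56 (WT) and 0.51 (KO) higher in log2 after OGD. After centring each library on that median, which removes this shift, 11 members were higher and 1 lower in WT (7.31% and 17.9% of all features), and 13 were higher and 3 lower in KO (7.57% and 21.9%). The lower ones, named after their values were seen, were miR-466d-5p in WT and miR-467c-3p, miR-669d-3p and miR-669d-2-3p in KO. With reads thinned to 1160582 per library, 13 members were higher in WT and 11 in KO, with 13.7% and 12.8% of all features higher (3.18% and 4.26% lower). Quantile normalization left 10 members higher in WT (9.54% of features higher and 12.9% lower), and 11 higher and 1 lower in KO (9.53% and 12.6%), miR-467e-5p, likewise named after the values were seen. With voom 45 members were higher in WT and 38 in KO. It called 42.4% of all features higher in WT and 47.1% in KO (46.9% and 53% in either direction, 4.53% and 5.95% lower), so the share of members in KO was near that of all features. Of the 31 members called in WT, 11 kept their call on the centred scale. They were miR-466i-5p, miR-466i-3p, miR-466f-3p, miR-466h-3p, miR-466q, miR-467f, miR-467g, miR-669c-3p, miR-669f-3p, miR-669n and miR-669p-3p.

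The counts by family are set beside the share of all features that rose, 18.7% in WT and 18.8% in KO, and differences between families were not tested. In miR-466, 17 of 29 members rose in WT and 14 in KO, and in miR-669 12 and 9 of 26 did. Members with identical reads were each counted, so some of these numbers hold the same reads more than once. In miR-467 the numbers were 2 and 2 of 13 (miR-467f and miR-467g in both), near the share of all features, and in miR-297 0 and 0 of 6, where 1 member in each genotype had an unadjusted p under 0.05. On the centred scale, where 7.31% (WT) and 7.57% (KO) of all features were higher, the members higher numbered 5 and 8 for miR-466, 4 and 3 for miR-669, 2 and 2 for miR-467 and 0 and 0 for miR-297. The summed miR-466 level went from 106.5 ± 56.9 to 438 ± 95.4 CPM in WT (SD, n = 5), and the summed miR-467 level from 98.7 ± 11.1 to 129 ± 23.1. miR-669 stood at 84.2 ± 10.6 and 156 ± 32.8 CPM, and miR-297 at 3.65 ± 1.55 and 7.38 ± 1.86. In KO the sums in normoxia and after OGD were 99.2 ± 18.1 and 353 ± 156 CPM for miR-466, 91.8 ± 6.89 and 117 ± 16 for miR-467, 87.1 ± 8.63 and 144 ± 30.3 for miR-669, and 2.82 ± 0.837 and 5.49 ± 3.39 for miR-297. These sums were not tested.

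miR-466i-5p, the 5p strand of the Mir466i hairpin on chromosome 13, was the most abundant member over the 20 libraries. That rank rests on its level after OGD. In normoxia miR-467a-5p averaged slightly more, 57.8 against 54.6 CPM in WT and 52.2 against 52.0 in KO. By library, miR-466i-5p stood at 29.6, 38.6, 43.6, 50.6 and 111 CPM in normoxic WT, and after OGD at 185, 282, 350.0, 245 and 344. In KO it stood at 44.2, 63.1, 50.1, 58.0 and 44.7 CPM in normoxia, and at 155, 176, 204, 154 and 388 after OGD. The groups did not overlap in either genotype, and replicate 5 was the highest library both in normoxic WT and in KO after OGD. The log2 fold change was 2.47 (SE 0.26, limma adjusted p = 1.32e-06) in WT and 1.96 (SE 0.21, limma adjusted p = 2.22e-06) in KO. Without the replicate 5 in question it was 2.76 in WT and 1.72 in KO, on the centred scale 1.91 and 1.45, and with thinned reads 2.61 and 1.96. The member held 12.7% to 26.9% of the summed CPM of the families in normoxic WT and 32.4% to 42.5% after OGD, and 16.2% to 20.2% and 30.1% to 40.3% in KO. All members but this one summed to 239 ± 39.8 CPM in normoxic WT, 449.9 ± 75.9 after OGD, and 229 ± 25.0 and 405 ± 98.4 in KO.

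miR-466i-3p, from the other arm of that hairpin, stood at 4.64, 7.25, 6.31, 4.53 and 18.9 CPM in normoxic WT and at 28.3, 32.5, 49.3, 29.2 and 41.7 after OGD. In KO it went from 5.32, 8.09, 5.8, 10.3 and 7.34 CPM to 19.8, 21.0, 26.3, 28.5 and 64.6. No OGD library reached down to a normoxic one. The log2 fold changes were 2.23 (SE 0.30, limma adjusted p = 2.16e-05) and 1.94 (SE 0.27, limma adjusted p = 4.1e-05).

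miR-466f-3p, whose precursors lie in Sfmbt2 and on chromosome 13, had nearly the same levels. In normoxic WT it stood at 4.64, 7.00, 5.94, 4.16 and 19.6 CPM and after OGD at 31.0, 38.6, 46.7, 32.0 and 46.7. In KO the values were 6.24, 10.3, 4.09, 10.2 and 6.01 CPM, and 23.7, 27.1, 29.5, 27.8 and 61.9. Again the groups did not overlap and replicate 5 was the high library in normoxic WT and in KO after OGD. It rose by 2.38 (SE 0.31, limma adjusted p = 1.25e-05) in log2 in WT and by 2.11 (SE 0.27, limma adjusted p = 1.6e-05) in KO. Its other arm, miR-466f-5p, was at or under 3.90 CPM in every library.

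miR-669a-5p and miR-669p-5p, which share all their reads and come only from Sfmbt2, rose less. They stood at 12.1, 10.9, 12.3, 7.56 and 5.67 CPM in normoxic WT and at 14.3, 12.5, 32.3, 16.7 and 17.6 after OGD. In KO they stood at 8.65, 11, 10.6, 9.91 and 10.6 CPM, and at 18.9, 16.8, 18.4, 16 and 19.5. The groups did not overlap, by a narrow margin in WT. The log2 fold change was 0.88 (SE 0.27, limma adjusted p = 0.0217) in WT and 0.79 (SE 0.14, limma adjusted p = 0.000486) in KO. On the centred scale it was 0.32 and 0.28, with limma adjusted p = 0.407 and 0.189, and the calls were lost on thinned reads in both genotypes. In WT the call was also lost without normoxic replicate 4 (adjusted p = 0.0713), OGD replicate 3 (0.0768) or OGD replicate 5 (0.0757).

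miR-467a-5p, the second member by mean level over the 20 libraries, has all its 10 precursors in Sfmbt2. It stood at 46.8, 59.2, 64, 62.5 and 56.3 CPM in normoxic WT and at 64.6, 47.4, 78.2, 79.3 and 73.3 after OGD, with overlapping groups. In KO it stood at 52.6, 48.8, 47.7, 56.7 and 55.2 CPM and at 65.4, 73.9, 57.4, 58.0 and 61.9, where the groups did not overlap. The log2 fold changes of 0.23 (SE 0.16, limma adjusted p = 0.331) and 0.27 (SE 0.11, limma adjusted p = 0.0829) did not pass. In KO it passed on the deposited values (limma adjusted p = 0.00985), with the filter on low values (0.0316) and without OGD replicate 3 (0.0446). On the centred scale they were -0.33 and -0.24, so no direction is given. Its 3p arm averaged 2.51 CPM in normoxic WT and 3.20 after OGD, and 1.92 and 2.47 in KO.

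Neither miR-669c-5p nor miR-467c-5p passed. miR-669c-5p stood at 44.9, 49.4, 45.7, 38.7 and 41.6 CPM in normoxic WT, and at 46.9, 48.2, 62.9, 52.8 and 55.2 after OGD. Its KO values were 45, 54.2, 43.0, 46.1 and 43.5 CPM, and 53.6, 59.7, 49.9, 53.1 and 60.7. Its groups overlapped in both genotypes, and the log2 fold changes were 0.27 (SE 0.14, limma adjusted p = 0.19) and 0.26 (SE 0.11, limma adjusted p = 0.11). miR-467c-5p stood at 11.4, 16.9, 16.2, 15.9 and 14.4 CPM in normoxic WT, and at 19.4, 13.3, 12.7, 20.9 and 16.1 after OGD. Its KO values were 13.1, 14.3, 11.3, 15.1 and 15.1 CPM, and 16.6, 19.3, 12.4, 13.2 and 16.7, again overlapping, with log2 fold changes of 0.12 (SE 0.20, limma adjusted p = 0.683) and 0.16 (SE 0.16, limma adjusted p = 0.513). miR-669c-5p passed on the deposited values in both genotypes (limma adjusted p = 0.0231 and 0.00233) and in KO with the filter on low values (0.0419), while the lowest adjusted p of miR-467c-5p over the alternatives was 0.0914 and 0.126. Both members had negative log2 fold changes on the centred scale in both genotypes. miR-467c-3p, the other arm, averaged 0.767 CPM or less in each group.

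**Figure D2:**
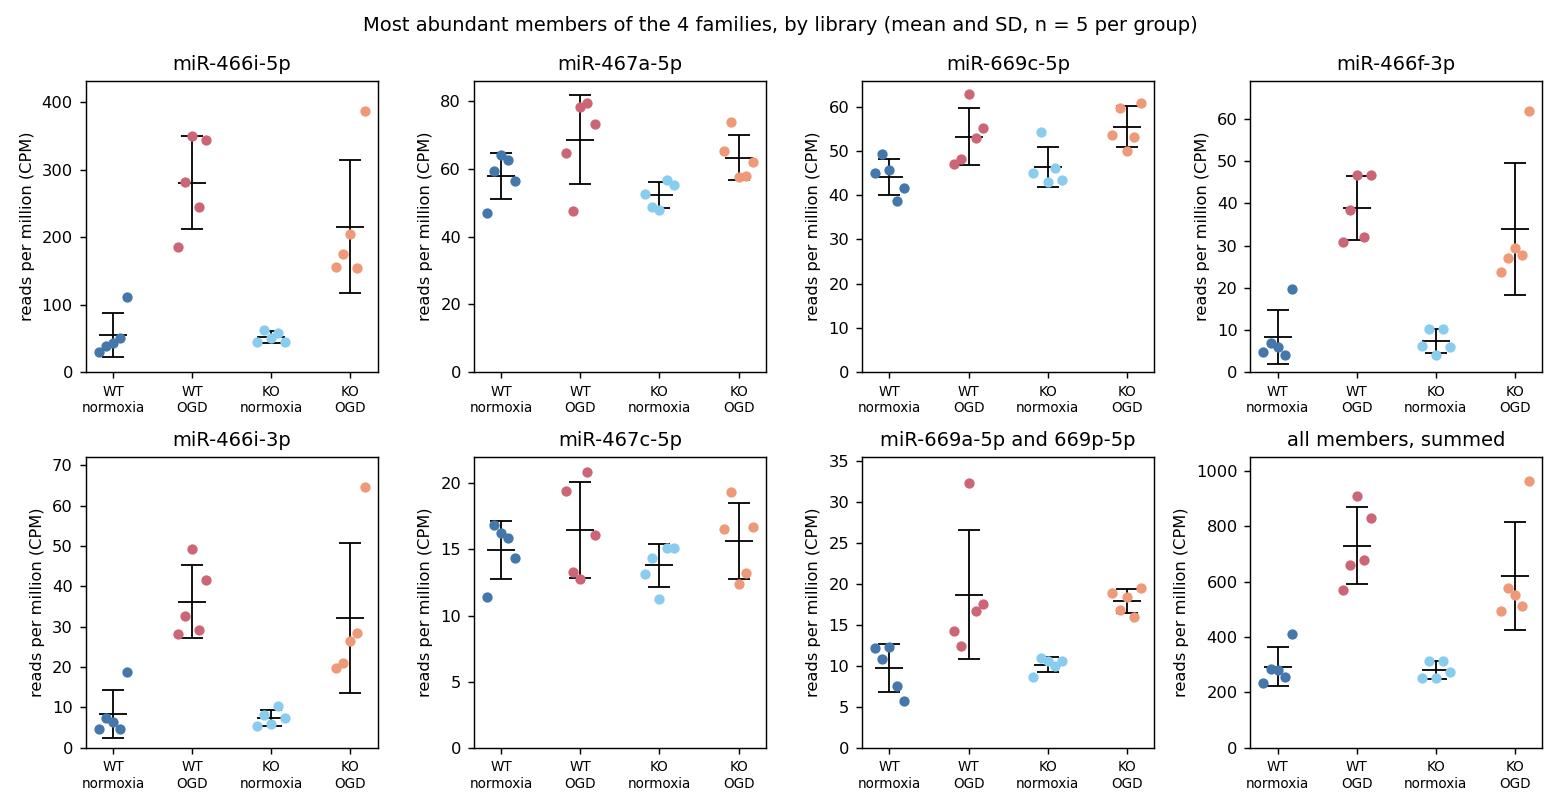
Level (CPM, linear axis from 0) of the most abundant members over the 20 libraries and of all members summed, by library, in the 4 groups. Points are libraries, bars the mean and SD of 5. miR-466i-5p, miR-466i-3p and miR-466f-3p separate OGD from normoxia, while miR-467a-5p, miR-669c-5p and miR-467c-5p overlap between conditions in WT.

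A further pair of sets rose in WT. miR-466a-3p and miR-466e-3p stood at 7.37, 9.37, 6.44, 6.05 and 10.2 CPM in normoxia and at 11.3, 11.2, 14.4, 13.2 and 19.6 after OGD, 0.78 higher in log2 (SE 0.22, limma adjusted p = 0.0149). miR-669a-3p and miR-669o-3p stood at 5.71, 7.5, 4.46, 5.29 and 4.16 CPM and at 8.85, 8.44, 11.9, 10.4 and 17.1, 0.98 higher in log2 (SE 0.24, limma adjusted p = 0.00635). The second set reached the mean log2(CPM + 0.5) of 3 used for naming members only through its level after OGD. Neither pair of groups overlapped. In KO the log2 fold changes were 0.53 (limma adjusted p = 0.164) and 0.30 (limma adjusted p = 0.358), with overlapping groups. On the centred scale the WT calls were lost too (0.22 and 0.42 in log2, limma adjusted p = 0.516 and 0.221), and that of miR-466a-3p was lost on thinned reads as well, at a log2 fold change of 0.66 (limma adjusted p = 0.311), while for miR-466e-3p, whose identical reads were thinned in a separate draw, it was kept (limma adjusted p = 0.0151). The other set split likewise, with the call kept for miR-669a-3p (limma adjusted p = 0.00887) and lost for miR-669o-3p.

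The members were also split by where their precursors lie. Of the 60 with precursors only in Sfmbt2, 22 rose in WT and 17 in KO, against 18.7% and 18.8% of all features, with median log2 fold changes of 0.52 and 0.49. Members with identical reads were each counted, which raises the numbers that rose in this class only. Of the 9 with precursors only elsewhere, 8 rose in WT and 5 in KO, with medians of 2.23 and 1.77. Of the 5 with both, 1 and 3 rose, with medians of 0.92 and 1.37. On the centred scale the members from Sfmbt2 alone did not exceed all features in WT, with 4 of 60 higher (6.67%, against 7.31%), and in KO 6 were higher and 3 lower (10% higher, against 7.57%). With quantile normalization 3 and 4 of the 60 were higher (5% and 6.67%, against 9.54% and 9.53%), and with thinned reads 7 and 4 (11.7% and 6.67%, against 13.7% and 12.8%). Of the 9 from elsewhere, 6 and 5 were higher on the centred scale, 6 and 5 with quantile normalization, and 5 and 5 with thinned reads. Over all features, the medians were 0.32 and 0.24. Summed, the members from elsewhere went from 68.1 ± 41.1 to 345 ± 82.5 CPM in WT and from 64.7 ± 11.1 to 268 ± 126 in KO (SD, n = 5). Those from Sfmbt2 alone went from 213 ± 23.6 to 339 ± 51.9 CPM and from 207 ± 18.9 to 310.2 ± 51.7. The difference between the classes was not tested, since the classes share libraries and, by sequence, possibly reads.

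**Figure D3:**
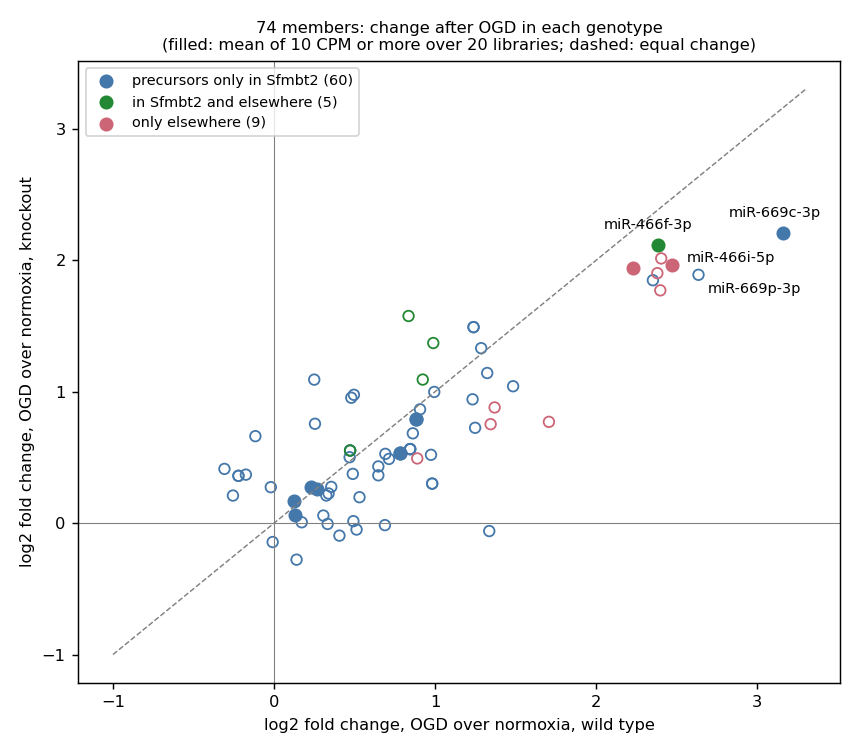
log2 fold change of the 74 members after OGD in WT (x axis) and KO neurons (y axis), coloured by where their precursors lie; filled points average 10 CPM or more, and the dashed line marks equal change. A group of 9 members lies above 1.7 on both axes, and 5 of these 9 have precursors only outside Sfmbt2.

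The 9 members that lay above 1.7 in log2 in both genotypes, singled out after their values were seen, were miR-466i-5p, miR-466i-3p, miR-466f-3p, miR-466h-3p, miR-466q, miR-467f, miR-467g, miR-669c-3p and miR-669p-3p. Of those not yet described, miR-669c-3p averaged 10.3 CPM over the 20 libraries and miR-669p-3p 7.48, and the other 4 averaged 2.54 to 3.85. miR-466q, whose precursor lies in Tnik, stood at 0.476, 0.750, 0.619, 0.756 and 3.40 CPM in normoxic WT and at 4.18, 7.63, 10.2, 8.34 and 7.03 after OGD (log2 fold change 2.40, SE 0.37, limma adjusted p = 8.28e-05). In KO it averaged 1.15 ± 0.634 CPM and 5.60 ± 4.13 (1.77, SE 0.37, limma adjusted p = 0.00185). miR-467f averaged 0.560 ± 0.148 CPM and 5.39 ± 2.79 in WT, and 0.588 ± 0.381 and 3.63 ± 1.81 in KO. miR-467g averaged 1.04 ± 1.35 and 6.45 ± 3.26 CPM, and 0.817 ± 0.414 and 4.92 ± 2.32. miR-466h-3p, from Sfmbt2, averaged 0.547 ± 0.193 and 4.98 ± 1.69 CPM, and 0.780 ± 0.169 and 4.19 ± 1.16. In each of these 4 members no OGD library fell within the range of its normoxic group. In normoxic WT their levels lay near the floor of 3 reads, with at most 9 reads in any library. In normoxic KO single libraries reached 18 reads for miR-466q, 14 for miR-467g, 11 for miR-466h-3p and 10 for miR-467f. All 4 kept their call in both genotypes with thinned reads, which were a single random draw.

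The arms of one hairpin did not move together in every case. miR-669c-3p stood at 1.19, 2.0, 1.73, 0 and 11 CPM in normoxic WT and at 14.7, 18.9, 28.0, 15.3 and 22.6 after OGD, while miR-669c-5p did not pass, as given above. In KO the 3p arm stood at 2.49, 2.89, 1.36, 4.11 and 2.89 CPM and at 9.43, 13.7, 11.2, 11.1 and 31.8. Its log2 fold change was 3.16 (SE 0.54, limma adjusted p = 0.0002) in WT and 2.21 (SE 0.31, limma adjusted p = 3.96e-05) in KO, where the call was lost with thinned reads (1.84, limma adjusted p = 0.154). A single normoxic WT library, replicate 5, stood at 11 CPM, near the OGD libraries. miR-669p-3p likewise stood at 0.832, 2.25, 2.23, 0.189 and 6.04 CPM in normoxic WT and at 8.60, 15.3, 21.2, 8.34 and 14.6 after OGD (2.63, SE 0.46, limma adjusted p = 0.000254), and in KO its log2 fold change was 1.89 (SE 0.31, limma adjusted p = 0.000222). The 5p arm of miR-669p, which shares its reads with miR-669a-5p, rose by 0.88 and 0.79.

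The log2 ratio of the 3p to the 5p arm, which apart from the pseudocount does not depend on how libraries are scaled, was chosen as a measure after values were seen. It was compared for the 7 precursors of the most abundant members in both genotypes (14 exact two-sided permutation tests of 5 against 5 libraries, smallest possible p = 0.00794, adjusted over the 14 by Benjamini-Hochberg). For miR-669c it went from -4.32 ± 1.59 to -1.43 ± 0.26 in WT (SD, n = 5; exact p = 0.00794, adjusted p = 0.037) and from -3.90 ± 0.44 to -1.95 ± 0.59 in KO (exact p = 0.00794, adjusted p = 0.037), and all 5 OGD libraries lay above all 5 normoxic ones in each genotype. In WT the margin was narrow, because normoxic replicate 5 stood at -1.88 and the other 4 at -4.32 or below. For miR-466f the ratio went from 2.76 ± 0.46 to 4.15 ± 0.35 in WT (exact p = 0.00794, adjusted p = 0.037) and from 3.26 ± 0.74 to 4.0 ± 0.94 in KO (exact p = 0.27, adjusted p = 0.42). miR-466f was among the 7 only through its 3p level after OGD, so this test is not independent of the choice. Its 5p arm had 2 to 5 reads in each WT library. Its 3p reads stood near those of miR-466i-3p, so whether both arms come from one hairpin cannot be told. For miR-669p the differences were 1.75 and 1.10 in log2 (exact permutation, adjusted p = 0.0926 and 0.0556). For miR-466i they were -0.25 and -0.02 (exact permutation, adjusted p = 0.42 and 0.963), and for miR-467a 0.13 and 0.00 (exact permutation, adjusted p = 0.963 and 1). For miR-467c they were 0.02 and -0.44 (exact permutation, adjusted p = 1 and 0.27). For miR-669a they were 0.10 and -0.49 (exact permutation, adjusted p = 0.963 and 0.0667), so in KO the 3p arm stood lower against the 5p arm after OGD, opposite in sign to miR-669c, without passing. The 3 calls were at the smallest p the test allows and were lost on thinned reads (adjusted p = 0.111 in each) and at a pseudocount of 0.1 CPM. The differences for miR-669c in WT and KO and for miR-466f in WT were then 2.83, 1.71 and 1.39 on thinned reads and 3.52, 2.11 and 1.04 at that pseudocount, against 2.89, 1.95 and 1.39. Leaving out any library raised the adjusted p to 0.0556 or 0.0741, except normoxic WT replicate 5 (0.0444), since 4 against 5 libraries cannot go below 0.0159. The differences then ran from 2.40 to 3.50, from 1.69 to 2.09 and from 1.23 to 1.53, in the same order. The 3.50 was without normoxic WT replicate 5.

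**Figure D4:**
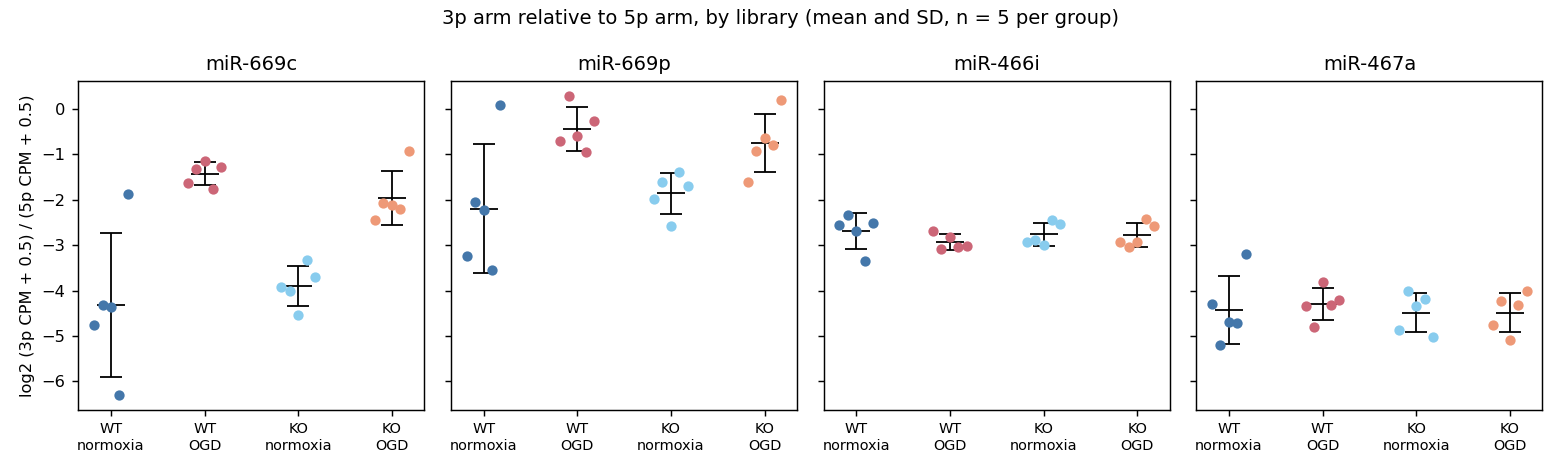
log2 ratio of the 3p to the 5p arm (each as CPM + 0.5) of 4 hairpins, by library, in the 4 groups; points are libraries, bars the mean and SD of 5. The ratio of miR-669c lies higher after OGD in both genotypes, with normoxic WT replicate 5 at -1.88 close to the OGD libraries, while those of miR-466i and miR-467a overlap between conditions.

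The sequences printed above share a feature that the choice of members did not use, a stretch in which A and C, or G and U, strictly alternate. Its longest run was 12 bases in miR-466q (bases 4 to 15) and in miR-467f (5 to 16), 11 in miR-466i-3p (3 to 13), 9 in miR-467g (8 to 16) and in miR-466k (1 to 9), 8 in miR-669n (4 to 11), and 7 in miR-466j (15 to 21) and in miR-467h (5 to 11). Only the mature strand as written was searched. Runs of 8 bases or more were found in 12 of the 1248 features with a sequence (0.962%), of which 6 were members. The length of 8 was chosen after values were seen, so what follows is a description without a test.

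Of the 12 features with a run of at least 8 bases, 9 rose after OGD in WT and 8 in KO. Of those with shorter runs, 16.9% and 17.2% rose. Among the 6 members with such a run 6 and 4 rose, and among the 6 other features 3 and 4. The KO calls include miR-672-5p, whose direction depended on the scale. On the centred scale 8 and 7 of the 12 were higher, against 6.40% and 6.48%, and with thinned reads 6 and 7, against 12.7% and 11.9%. All 6 with a run of 10 or more rose in both genotypes, with median log2 fold changes of 2.30 and 1.90, and all 6 stayed higher on the centred scale. With thinned reads miR-3082-5p did not pass in WT (limma adjusted p = 0.242). Of these 6, 3 were members (miR-466q, miR-467f and miR-466i-3p). The other 3 belong to other families and are shown with the run in capitals.
miR-574-5p: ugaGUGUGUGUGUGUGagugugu
miR-1187: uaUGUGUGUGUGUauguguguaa
miR-3082-5p: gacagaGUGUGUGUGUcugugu
miR-574-5p averaged 20.1 ± 7.28 CPM in normoxic WT and 75.1 ± 16.7 after OGD (1.91 higher in log2, SE 0.21, limma adjusted p = 1.44e-06). It rose by 1.59 in KO. miR-1187 averaged 14.8 ± 8.79 and 78.2 ± 16.5 CPM in WT (2.49, SE 0.26, limma adjusted p = 1.04e-06) and rose by 1.97 in KO. miR-3082-5p averaged 1.23 ± 1.22 and 4.96 ± 2.11 CPM in WT (1.75, SE 0.41, limma adjusted p = 0.00363) and rose by 1.90 in KO.

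The run was not matched by a rise in every feature. miR-32-3p (9 bases) had log2 fold changes of 0.31 and 0.18, and miR-3097-5p (8 bases) of 0.38 and 0.27, none past the threshold. Of the members, miR-466k (9 bases) rose by 1.34 in WT and stood at 0.75 in KO (limma adjusted p = 0.0506), and miR-669n (8 bases) rose by 1.71 in WT and stood at 0.77 in KO (limma adjusted p = 0.0771). Both had at most 10 reads in any library, and in WT the call of miR-466k was lost on the centred scale, with quantile normalization and with thinned reads, and that of miR-669n with thinned reads. miR-672-5p (8 bases) had 0.31 in WT, not past it, and 0.33 in KO, past it (limma adjusted p = 0.0409), but -0.18 there on the centred scale, so no direction is given. Among members with shorter or interrupted repeats, miR-466j rose by 1.37 in WT and stood at 0.88 in KO, not past the threshold, and miR-467h passed in neither genotype. Most features that rose had no such run (209 of 218 with a sequence in WT, 212 of 220 in KO). Since the 8 members with a sequence all have precursors outside Sfmbt2, the run and the place of the precursor cannot be told apart among members.

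**Figure D5:**
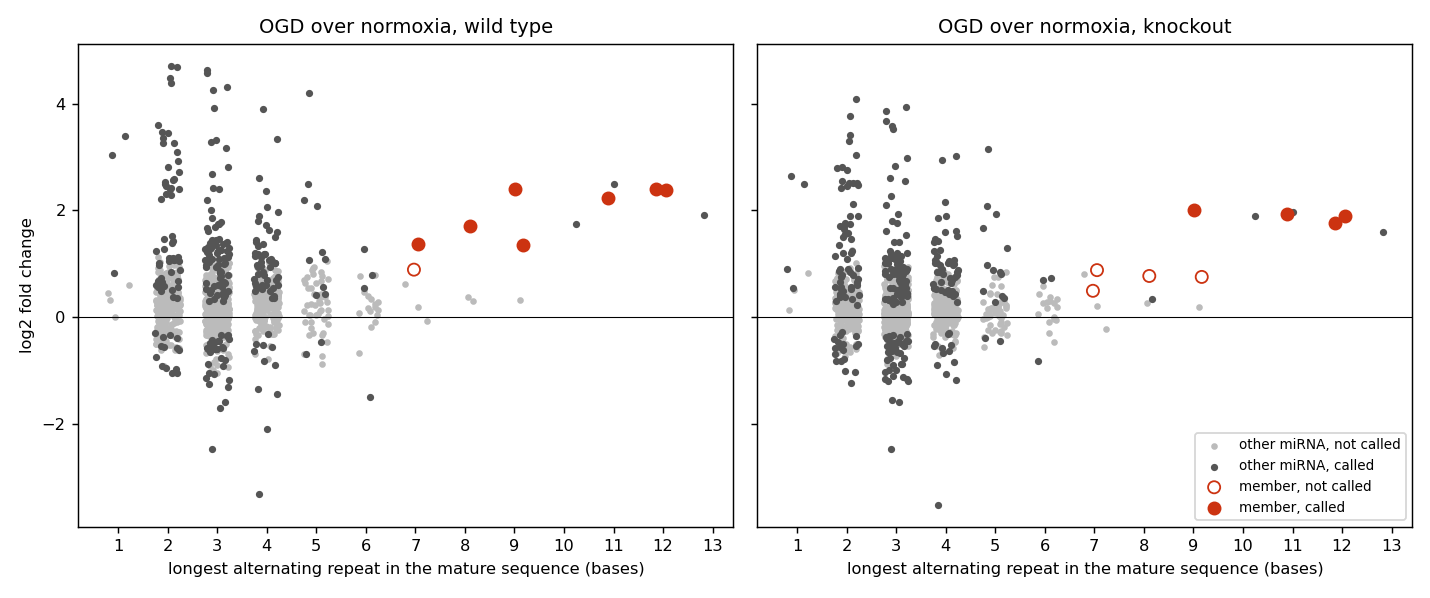
log2 fold change after OGD in WT (left) and KO (right) against the longest alternating repeat in the mature sequence (bases), for features with a sequence; red marks the 8 members, filled where the adjusted p was under 0.05, and points are shifted sideways for visibility. The 6 features with a repeat of 10 bases or more were called higher in both genotypes, and shorter repeats show both high and low values.

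Knockout was compared with wild type within each condition, which asks whether loss of ciRS-7 moves these families. In normoxia 0 of 74 members passed by limma and 0 by voom (0% of 1481 features), with 4 and 1 members at an unadjusted p under 0.05. The median log2 fold change of the members was -0.00 and that of all features 0.03. In 0 of 74 members were the groups free of overlap, against 0.203% of features higher and 0.338% lower. miR-466i-5p differed by 0.07 in log2 (SE 0.27, limma adjusted p = 0.995), miR-467a-5p by -0.14 (SE 0.11, limma adjusted p = 0.984) and miR-669c-5p by 0.07 (SE 0.11, limma adjusted p = 0.984). The smallest p in each direction belonged to rare members, miR-669h-3p (0.32, SE 0.11, limma adjusted p = 0.984, at most 2 reads in any library) and miR-669b-5p (-0.65, SE 0.23, limma adjusted p = 0.984). Over the alternatives on recovered reads their values ran from 0.09 to 1.09 and from -0.86 to -0.36.

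After OGD 0 of 74 members passed by limma and 0 by voom (0% of 1481 features), with 3 and 7 at an unadjusted p under 0.05. The median log2 fold change was -0.19 over the members and -0.05 over all features, and 20 of the 74 members were above 0. The groups overlapped in all 74, against 0.405% of features free of overlap and higher and 0.54% lower. miR-466i-5p stood at 185 to 350.0 CPM in WT and at 154 to 388 in KO, a difference of -0.44 in log2 (SE 0.19, limma adjusted p = 0.551). This value turned on replicate 5 of KO: without that library the difference was -0.67 (SE 0.14, limma adjusted p = 0.00621), the KO libraries stood at 154 to 204 CPM, and 22 of 1481 features (1.49%) passed, all lower in KO. Over 20 other alternatives its adjusted p ran from 0.188 to 0.887, and on the deposited values it was 0.0599. miR-669k-5p (-1.12, SE 0.43, limma adjusted p = 0.474) and miR-669m-3p (0.66, SE 0.41, limma adjusted p = 0.734) had the smallest p in each direction. Both are rare, and over the alternatives on recovered reads their values ran from -2.28 to -0.45 and from 0.22 to 1.62.

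The change after OGD was then compared between genotypes with an interaction term over the 20 libraries. By limma 0 of 74 members passed, and 0 by voom (0% of 1481 features), with 4 and 3 at an unadjusted p under 0.05. The median interaction was -0.18 over the members and -0.07 over all features. For miR-466i-5p the OGD change was 0.51 lower in KO in log2, an interaction of -0.51 (SE 0.37, limma adjusted p = 0.99), for miR-669c-3p the interaction was -0.95 (SE 0.68, limma adjusted p = 0.99) and for miR-466f-3p -0.27 (SE 0.44, limma adjusted p = 0.99). The smallest p in each direction belonged to miR-669k-5p (-1.40, SE 0.45, limma adjusted p = 0.609) and miR-669b-5p (0.78, SE 0.47, limma adjusted p = 0.99), whose values ran from -3.15 to -0.53 and from 0.43 to 1.00 over the alternatives on recovered reads.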

How the data were processed

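Small RNA was sequenced in 20 libraries. The deposited data were 6 tables of 2 groups each, which their names call log CPM. Per the submitters' processing notes the build was mm10; aligner, annotation release and the counting of shared reads are not given in the sources used here. The deposited values reached 35.8 to 37.3, above the 19.9 that log2 CPM can reach, so they were treated as a score. Undoing a power and a pull of each group's extremes by 64% towards their neighbours, both worked out from the values, gave whole reads for 100% of values (tolerance 0.05), alike in all tables. CPM used the authors' library factors (0.923 to 1.08 times the total reads).

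limma 3.58.1 in R 4.3.3 was run on log2(CPM + 0.5) of the 10 libraries of each comparison, because the planned use of the deposited values as log2 CPM was not possible; the fit was tested on simulated data. Positions came from RefSeq and GENCODE M21 (GRCm38). Members and lists were chosen with earlier results of these data known. Named members are the 8 with the highest mean CPM over the 20 libraries, OGD included, with their other arms and identical sets. miR-466f-3p ranked among these 8 only through its level after OGD. In normoxia it averaged 8.28 CPM in WT and 7.36 in KO, below miR-467e-5p (10.0 and 10.1), which is not among the 8. In each comparison the 8 largest changes per direction among called members with a mean of at least 3 were also named. Where none was called, the smallest p in each direction was named. Alternatives included other pseudocounts, filtering, centring, quantile normalization, voom, thinning, a replicate block and each replicate left out.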

Additional observations from a re-analysis of the deposited data

Results flagged for a closer look

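In 8 quantities (the sum of the members and the 7 distinct members described in full) and 4 groups, 32 sets of 5 libraries were searched for a library far from the other 4; chance marks about 1 set in 20, and 10 were marked. Replicate 5 of normoxic WT stood apart in 4 of them: the sum was 412 CPM (the others 233 to 283), miR-466i-5p 111 CPM (29.6 to 50.6), miR-466i-3p 18.9 CPM (4.53 to 7.25) and miR-466f-3p 19.6 CPM (4.16 to 7.00). Replicate 5 of KO after OGD stood apart in the same 4 quantities, with a sum of 963 CPM (495 to 576), miR-466i-5p at 388 CPM (154 to 204), miR-466i-3p at 64.6 CPM (19.8 to 28.5) and miR-466f-3p at 61.9 CPM (23.7 to 29.5). Since miR-466i-5p is part of the sum, and miR-466i-3p and miR-466f-3p stood at nearly the same levels, these cannot be taken as separate observations. The other marked libraries were replicate 3 of WT after OGD, with miR-669a-5p at 32.3 CPM (12.5 to 17.6), and replicate 2 of normoxic KO, with miR-669c-5p at 54.2 CPM (43.0 to 46.1).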

How the results depend on the processing

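The counts of members called after OGD (31 in WT, 25 in KO) depended on the scale and on rare members. They were 9 of 13 and 7 of 11 members tested (37.4% and 42.6% of features) with a filter on low values, which some members pass only through their level after OGD, 12 and 16 with centred libraries, 10 and 12 with quantile normalization, and 13 and 11 with thinned reads. With voom they were 45 and 38, where 42.4% and 47.1% of all features were higher, and with the deposited values 37 and 34 (24.9% and 22.9%). Leaving out 1 replicate gave 21 to 34 and 19 to 26, with 14.4% to 18.4% and 15.3% to 19.6% of all features higher. Thinning drew each feature on its own, so members with identical reads can differ there. In the genotype comparisons the deposited values, whose extremes are pulled in, called 2 members in normoxia and 1 after OGD (2.23% and 4.86% of all features); leaving out 1 replicate gave 0 to 0 and 0 to 1, the 1 being miR-466i-5p without KO OGD replicate 5, and 0 to 0 for the interaction.

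Between OGD and normoxia, the deviations of same-numbered libraries correlated at -0.18 to 0.66 in WT, where 4 of 5 correlated best with their own number, and at -0.20 to 0.48 in KO, where 3 of 5 did. The sample titles put the replicate number beside the genotype, alike in both conditions, but name no shared source. Since 1 pair in each genotype was below 0.1, the pairing was not used, though these values and the titles are a hint of it. With a replicate block 33 and 26 members were called after OGD (21.1% and 20.8% of all features higher) and 0 in the genotype comparisons and the interaction. With the replicate block and centred libraries 12 were called in WT, all higher, and 15 in KO, 13 higher and 2 lower (7.65% and 7.98% of all features higher, 20.6% and 23.5% lower).

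Of the members named, only those not called changed sign. miR-467a-5p stood at -0.33 (WT) and -0.24 (KO) with centred libraries, with and without the block, and at -0.36 and -0.17 with quantile normalization. The values of miR-467c-5p were -0.44 and -0.35, and -0.51 and -0.35, with -0.17 in WT on thinned reads. Those of miR-669c-5p were -0.29 and -0.25, and -0.32 and -0.24. The cause was not tested. Summing members with one mature sequence was not run, because no 2 of the 8 with a sequence share one; collapsing features with identical reads, added after seeing the data, called 25 and 23 of 65. Depth limits the rare members: 23 averaged less than 1 CPM.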
